A study of Mus musculus with 8 samples.

Results

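A set of 10 NRF2 target genes, led by *Srxn1*, was followed in the livers of *Apoe*-/- mice given isoginkgetin (ISOGK), a biflavonoid studied as an inhibitor of ATP citrate lyase. The genes were taken from the count table by symbol (*Srxn1*, *Nqo1*, *Gclc*, *Gclm*, *Txnrd1*, *Hmox1*, *Slc7a11*, *Osgin1*, *Gsr* and *Prdx1*) and make up 10 of its 16540 genes. They were chosen by pathway with the fold changes and adjusted p-values of this same comparison in view, so their differences between the groups are descriptions and carry no p of their own, and how many of them the fit to all genes called is given once, with the share of all genes called. Liver RNA was sequenced from 4 vehicle-treated and 4 ISOGK-treated mice, with 1 library per mouse. All mice were male by the series title, lacked *Apoe* in every cell and ate a Western, high cholesterol diet. The daily intraperitoneal dose of ISOGK was 20 mg/kg over 8 weeks, and the control mice received vehicle, whose columns carry the name of the solvent DMSO. Age was not given in the labels, and the labels alone say that each library came from its own mouse.

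NRF2, encoded by *Nfe2l2*, is the transcription factor that switches on genes against oxidative and electrophilic stress. In resting cells KEAP1 holds NRF2 and hands it to a CUL3 and RBX1 ubiquitin ligase for destruction. When reactive compounds modify KEAP1, NRF2 accumulates, pairs with small MAF proteins and binds antioxidant response elements (ARE) in its target genes. In liver, these targets supply glutathione, keep thioredoxin and peroxiredoxin reduced, detoxify quinones and break down heme.

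The promoters of the members are shown because the ARE and the related AP-1-like element are the sequences through which such genes are known to be induced. RefSeq promoter windows (GRCm38.p6, 250 bases before to 50 bases after each start) were found for 7 of the 10 genes, in 9 windows; *Gclc*, *Hmox1* and *Gsr* were not matched. Both strands were searched for an ARE core, TGACNNNGC, and an AP-1-like element, TGANTCA, which can overlap each other. The 250 bases before the start of *Srxn1* (chr2:152105274-152105523, + strand) held TGAGTCA 102 and 45 bases before the start, in capitals here.
Srxn1: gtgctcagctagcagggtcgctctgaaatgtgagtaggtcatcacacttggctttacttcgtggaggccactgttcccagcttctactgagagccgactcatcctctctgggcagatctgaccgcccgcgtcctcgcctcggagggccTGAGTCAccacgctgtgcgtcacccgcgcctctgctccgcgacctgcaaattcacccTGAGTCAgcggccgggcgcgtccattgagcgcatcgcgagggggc

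The match 45 bases before the start of *Srxn1* is followed by GC. It differs from the ARE core searched only by TGAG in place of TGAC, so it was not counted as an ARE core. An ARE core as searched was present on the minus strand of *Srxn1*, from position 29 counted with the start as 1. One match each, in capitals, is shown for the other members that had one (+ strand, 5′ to 3′).
Srxn1, ARE core, chr2:152105542-152105570: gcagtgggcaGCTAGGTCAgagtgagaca
Gclm, ARE core, chr3:122245413-122245441: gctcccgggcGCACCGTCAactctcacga
Txnrd1, ARE core, chr10:82859104-82859132: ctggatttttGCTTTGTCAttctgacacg
Prdx1, ARE core overlapping TGAGTCA, chr4:116685456-116685484: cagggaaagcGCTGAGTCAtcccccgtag
Osgin1, AP-1-like, chr8:119437040-119437068: gggcccctgcTGACTCAcgcttatgaaag

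The ARE core was thus found in 4 of the 7 genes and the AP-1-like element in 3, which is 4 and 3 of their 9 windows. Among all 32851 mouse promoter windows, 12.4% held the ARE core and 7.81% the AP-1-like element. A pair or more of AP-1-like matches, as in *Srxn1* and *Prdx1*, occurred in 0.46% of all windows, and an overlap of both motifs, as in *Prdx1*, in 0.454%. The *Txnrd1* match lay in the window of only 1 of its 3 annotated starts. The only *Osgin1* window (119436897 to 119437196) lay inside the gene as annotated in GENCODE M21 (119434124 to 119446256, + strand), not at its annotated gene start. No match was found in the windows of *Nqo1* and *Slc7a11*, which says only that these letters are not there. These matches are letters in a sequence and not measured binding.

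The libraries held 19605286 to 24461854 counts under vehicle and 17457106 to 21626399 counts under ISOGK. The 6 hepatocyte markers summed to 142200 to 154400 CPM under vehicle and 130300 to 167600 CPM under ISOGK, as liver would give, and 0 of 6 passed in edgeR (1 had an unadjusted p under 0.05, and DESeq2 called 1 higher and limma-voom 0). *Apoe* still gave 3252 to 6489 counts per library, and a count per gene cannot show whether its transcript was disrupted. Each gene's log2 CPM was also set against its median over the 8 mice. On this scale, the median of transcripts under 1000 bases was compared with that of transcripts over 4000 bases. The difference was -0.153, -0.068, -0.076 and -0.02 in vehicle mice 1 to 4. In ISOGK mice 1 to 4 it was 0.138, 0.138, -0.128 and 0.45. All vehicle mice thus lay below 0 and all ISOGK mice but mouse 3 above it, so this length shift partly followed the groups. Skeletal muscle transcripts were seen in vehicle mouse 4, with 84.4 CPM over 10 markers against at most 1.69 elsewhere. In vehicle mouse 1 macrophage genes stood apart in both directions. *Adgre1* was at 143 CPM against 37.0 to 73.2 CPM in the other mice, and *Clec4f* at 73.0 CPM against 163 to 231 CPM. In ISOGK mouse 4 the macrophage gene *Vsig4* was at 5.34 CPM (102 counts) against 75.05 to 104 CPM in the other mice. Values here are CPM, the counts scaled to library size after TMM normalization. Differences are log2 fold changes of ISOGK over vehicle with their standard error (SE), from an edgeR quasi-likelihood fit to 12307 genes. The SE was derived from the test, as the absolute log2 fold change divided by the square root of its F statistic.

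*Srxn1* had the largest difference of the 9 members that passed the low-count filter. It encodes sulfiredoxin, which repairs peroxiredoxins that peroxide has over-oxidised, and lies on chromosome 2 (152105516 to 152111376, + strand, GRCm38). Vehicle-treated mice 1 to 4 had 33.8, 28.5, 35.0 and 32.0 CPM, and ISOGK-treated mice 1 to 4 had 61.9, 67.1, 66.3 and 64.5 CPM. Every ISOGK-treated mouse thus lay above every vehicle-treated mouse, and the mice within a group were close to each other, with coefficients of variation of 8.79% and 3.52%. The group means were 32.3 ± 2.84 and 65.0 ± 2.29 CPM (SD, n = 4 each). This was a log2 fold change of 1.01 (SE 0.09), or 2.01-fold. Raw counts of 674 to 1272 lay behind these values. The log2 fold change stayed between 0.88 and 1.05 in all 17 other settings tried, with single mice left out among them, and was over 1 in 11 of the 17.

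*Prdx1*, the peroxiredoxin that sulfiredoxin can repair, was by far the most abundant member. Its level was 624, 602, 578 and 567 CPM in vehicle-treated mice 1 to 4, and 734, 672, 586 and 859 CPM in ISOGK-treated mice 1 to 4. The vehicle-treated mice lay close together, while the ISOGK-treated mice spread from 1 within the vehicle range to 1 far above it, so the groups overlapped. The log2 fold change was 0.27 (SE 0.12). The ISOGK mice with the highest and the lowest *Prdx1*, 4 and 3, were also those with the highest and lowest shift of short against long transcripts (0.45 and -0.128 on the log2 scale). A link between them was not tested, and the *Prdx1* transcript, at 2294 bases, was in neither of these length classes. Without ISOGK mouse 4 the difference in *Prdx1* was 0.16, and with offsets for transcript length and GC content, a setting added after the data had been seen, it was 0.34. *Prdx1* has processed copies in the mouse genome among which reads may have been split.

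*Txnrd1* encodes the cytosolic reductase that keeps thioredoxin, the electron donor of sulfiredoxin and peroxiredoxins, reduced. It was found at 121, 116, 120 and 112 CPM in vehicle-treated mice and at 133, 125, 127 and 129 CPM in ISOGK-treated mice. The lowest ISOGK-treated mouse lay just above the highest vehicle-treated mouse, so the groups did not overlap, although the difference was small. On the log2 scale it was 0.13 (SE 0.08), and scaling by library size alone took it to 0.00. Of the 10 genes, it varied least among the mice, with coefficients of variation of 3.31% and 2.91%. *Txnrd1* overlaps *Eid3* and other annotated genes, and whether strand was used in counting is not given in the sources used here.

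**Figure D1:**
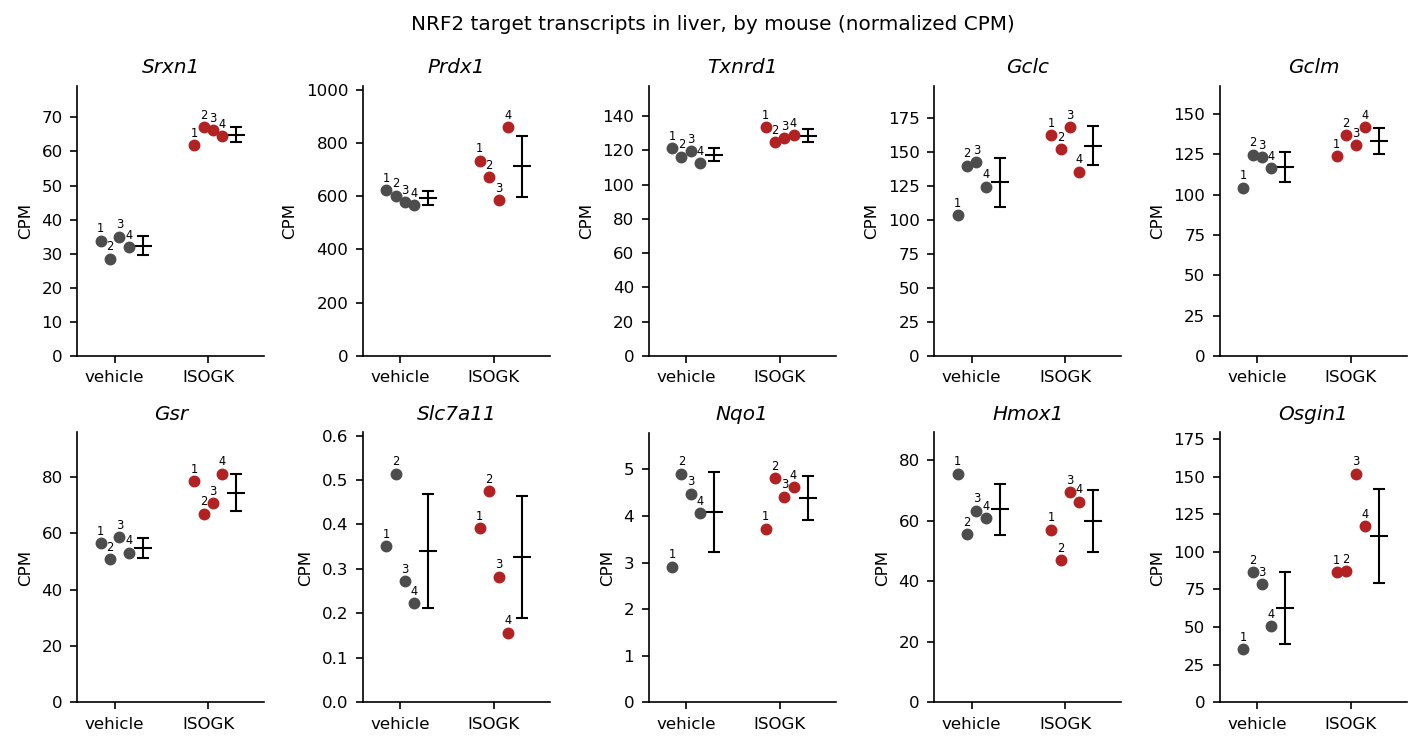
Level of each of the 10 NRF2 targets in liver, in normalized CPM (vertical axes, each from 0) for the 4 vehicle-treated (grey) and 4 ISOGK-treated (red) mice, numbered by replicate, with the group mean and SD as bars. *Srxn1* is between 28.5 and 35.0 CPM in the vehicle group and between 61.9 and 67.1 CPM in the ISOGK group, whereas the groups overlap for *Nqo1*, *Hmox1*, *Gclc*, *Gclm*, *Prdx1* and *Slc7a11*.

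Glutathione genes among the members differed less than *Srxn1*. *Gsr* encodes glutathione reductase, which regenerates reduced glutathione with NADPH. Its levels were 56.4, 50.8, 58.6 and 53.1 CPM in the vehicle group and 78.3, 67.0, 70.7 and 81.1 CPM in the ISOGK group. All ISOGK-treated mice lay above all vehicle-treated mice, with a log2 fold change of 0.44 (SE 0.09), or 1.36-fold. Vehicle mouse 2 had the lowest *Gsr*, and the difference was 0.41 without it and 0.31 with scaling by library size alone.

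*Gclc* and *Gclm* encode the catalytic and modifier subunits of glutamate-cysteine ligase, the rate-limiting enzyme of glutathione synthesis. *Gclc* was found at 104, 140, 143 and 125 CPM in vehicle-treated mice and 162, 152, 168 and 136 CPM in ISOGK-treated mice. Only ISOGK mouse 4 fell within the vehicle range, and the log2 fold change was 0.28 (SE 0.12). *Gclm* was found at 104, 125, 123 and 116 CPM in vehicle-treated mice and 124, 137, 130 and 142 CPM in ISOGK-treated mice. Here ISOGK mouse 1 lay within the vehicle range, and the log2 fold change was 0.18 (SE 0.09), with 0.05 under library size alone and 0.34 with the length and GC offsets. Vehicle mouse 1 was the lowest of the 8 mice for both subunits. A transcribed pseudogene on the same strand overlaps *Gclm*.

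*Slc7a11* encodes the cystine transporter of system xc-, which brings in the cysteine for glutathione and is also known as a target of ATF4. It was barely detected in these livers, with 7, 13, 7 and 5 counts in vehicle-treated mice and 8, 9, 5 and 3 counts in ISOGK-treated mice. The groups overlapped. The gene did not pass the low-count filter, so it had no fitted fold change and its difference was not tested. A small difference could not be seen at such counts.

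*Nqo1*, the quinone reductase often used as a readout of NRF2, was expressed at a low level. It was found at 2.91, 4.91, 4.48 and 4.06 CPM in vehicle-treated mice and at 3.73, 4.80, 4.41 and 4.61 CPM under ISOGK. The ISOGK-treated mice all lay inside the vehicle range, with a log2 fold change of 0.09 (SE 0.18). The estimate changed sign among the settings tried, from -0.04 to 0.19.

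*Hmox1* encodes heme oxygenase 1, which breaks heme down to biliverdin, iron and carbon monoxide and which Kupffer cells as well as hepatocytes express. Vehicle-treated mice had 75.5, 55.5, 63.2 and 60.7 CPM, and ISOGK-treated mice had 56.9, 46.9, 69.3 and 66.3 CPM. The groups overlapped widely and *Hmox1* was the only tested member with a lower estimate in the ISOGK group, -0.09 (SE 0.13), with a range of -0.22 to 0.01 over the settings. The highest value was that of vehicle mouse 1, which was the highest of its group for 7 of the 12 Kupffer cell and macrophage markers, such as *Marco* (170 CPM) and *Timd4* (37.1 CPM), and the lowest for 3, *Clec4f* (73.0 CPM), *Trem2* (5.82 CPM) and *Cd68* (45.5 CPM). The sum of the 12 markers was 1535 to 1892 CPM in the vehicle group and 1187 to 1481 CPM in the ISOGK group, without overlap. Of the 12, *Cd68* (log2 fold change -0.57, edgeR adjusted p = 0.009) and *Gpnmb* (-1.19, edgeR adjusted p = 6.48e-05) fell and none rose. Their part in the *Hmox1* values was not tested, and in bulk liver fewer cells of a type and less RNA per cell cannot be told apart.

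*Osgin1*, an NRF2 target that encodes an oxidative stress induced growth inhibitor, had the second largest difference and the largest spread of the 9 tested members. Its level was 35.3, 86.3, 78.6 and 50.7 CPM in vehicle-treated mice and 86.4, 87.0, 152 and 117 CPM in ISOGK-treated mice. The groups were separated by the narrowest of margins, as ISOGK mouse 1 and vehicle mouse 2 were nearly equal. The log2 fold change was 0.82 (SE 0.30), and it was 0.62 without vehicle mouse 1 or without ISOGK mouse 3. The coefficient of variation was 38.0% in the vehicle and 28.1% in the ISOGK group, against 8.79% and 3.52% for *Srxn1*.

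**Figure D2:**
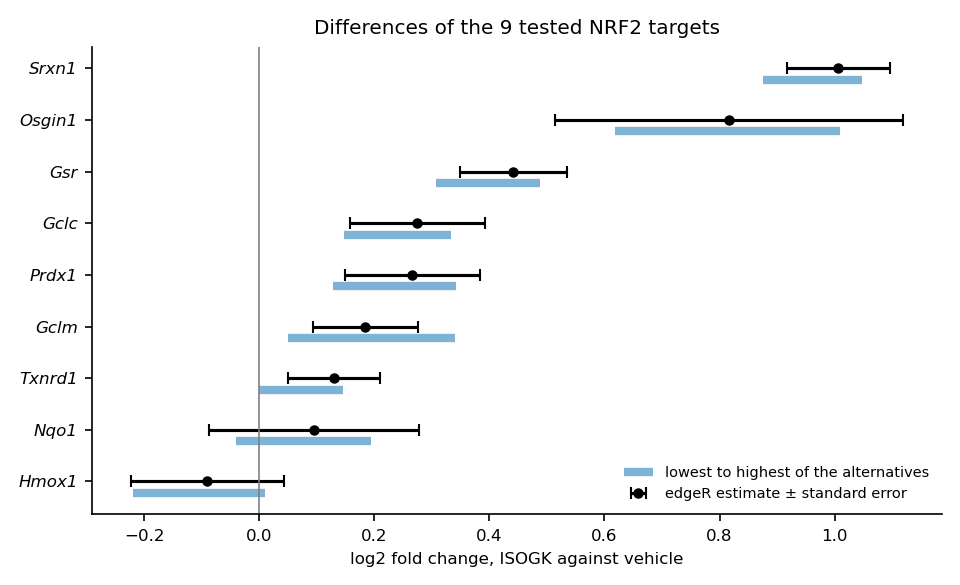
Log2 fold change of ISOGK over vehicle (horizontal axis) for the 9 NRF2 targets that were tested, as the edgeR estimate with its standard error (black), above the range of the estimates over the 17 other settings (blue bars). *Srxn1* stays between 0.88 and 1.05, *Gsr* between 0.31 and 0.49, and the ranges of *Nqo1* and *Hmox1* include 0.

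Across the 9 tested members, 8 had an estimate above 0, as did 50.2% of all 12307 genes. The median log2 fold change was 0.27, with 0.00 over all genes tested. At an edgeR adjusted p under 0.05, 2 of the 9 were called higher (*Srxn1* and *Gsr*) and 0 lower, where 4.11% of all genes were called higher, 3.44% lower and 7.55% in either direction. In 4 of the 9 (*Srxn1*, *Gsr*, *Txnrd1* and *Osgin1*) every ISOGK-treated mouse lay above every vehicle-treated mouse, where 7.92% of all genes did so, and 0 of the 9 lay fully below, where 7.36% did. *Srxn1* alone passed both an adjusted p under 0.05 and a log2 fold change over 1, which 0.999% of all genes passed as higher. As the members were chosen with this contrast known, nothing is read from these shares.

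Per kilobase of transcript, the levels of the members in vehicle-treated liver spanned a wide range. *Prdx1* was highest at 258 ± 10.9 CPM per kb (SD, n = 4), above *Hmox1* at 40.6 ± 5.38, *Gclc* at 37.3 ± 5.26, *Txnrd1* at 33.2 ± 1.10 and *Osgin1* at 31.3 ± 11.9 CPM per kb. Neighbours in this order from *Hmox1* to *Osgin1* were within the summed SDs of each other, while *Hmox1* and *Txnrd1* were further apart than that. *Gclm* at 20.97 ± 1.67 and *Gsr* at 20.5 ± 1.29 CPM per kb were also not separated from each other, nor *Gclm* from *Osgin1*. *Srxn1* followed at 11.5 ± 1.01, then *Nqo1* at 2.63 ± 0.55 and *Slc7a11* at 0.037 ± 0.014 CPM per kb, each step larger than the summed SDs. In the ISOGK group *Srxn1* stood at 23.1 ± 0.81 CPM per kb, next to *Gclm* at 23.8 ± 1.41 CPM per kb. These levels rest on 1 principal transcript per gene in GENCODE M21.

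The members did not rank the mice alike. Vehicle mouse 1 was the lowest of its group for 4 of the 9 tested members (*Nqo1*, *Gclc*, *Gclm* and *Osgin1*) but the highest for 3 (*Txnrd1*, *Hmox1* and *Prdx1*). In the ISOGK group, mouse 1 was lowest for 4 and mice 3 and 4 were each highest for 3. For *Srxn1*, ISOGK mouse 2 was highest and mouse 1 lowest, and for *Gsr* mouse 4 was highest and mouse 2 lowest.

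The transcript of NRF2 itself differed by less than the spread between mice. *Nfe2l2* was found at 60.9, 47.3, 59.8 and 49.7 CPM in vehicle-treated and at 38.8, 52.6, 69.4 and 53.5 CPM in ISOGK-treated mice. The ISOGK-treated mice spread around the vehicle-treated mice on both sides, with a log2 fold change of -0.02 (SE 0.16, edgeR adjusted p = 0.946). *Keap1*, the inhibitor of NRF2, had 32.8 ± 1.84 and 38.7 ± 6.78 CPM (SD, n = 4 each), a log2 fold change of 0.24 (SE 0.12, edgeR adjusted p = 0.249). NRF2 is regulated mainly at the protein level, which was not measured here.

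Among the 17 genes of NRF2 and its control, which all were tested, 1 rose and 0 fell at an edgeR adjusted p under 0.05. Of all genes, 4.11% rose and 3.44% fell, and the median log2 fold change of the 17 was -0.02. The gene that rose was *Sqstm1*, which encodes p62, an autophagy receptor that binds KEAP1 and is itself an NRF2 target. Its levels were 392, 395, 397 and 416 CPM in vehicle-treated and 568, 600, 544 and 672 CPM in ISOGK-treated mice. The groups did not overlap, and the log2 fold change was 0.58 (SE 0.09, edgeR adjusted p = 0.00467). *Sqstm1* passed the threshold in all 17 other settings.

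The other control genes did not pass. For the ligase subunits *Cul3* and *Rbx1* the log2 fold change was -0.24 and -0.11, and for the related factor *Nfe2l1* it was 0.25. Among the small MAF partners, *Maff* had -0.64, *Mafg* -0.32 and *Mafk* 0.01. *Bach1*, a repressor that competes for the same elements, had -0.10, and its relative *Bach2* had -0.84 (edgeR adjusted p = 0.0762) with ISOGK-treated mice at 1.73 to 4.06 CPM, all below the 4.75 to 5.82 CPM of vehicle-treated mice. *Dpp3*, which binds KEAP1, had 0.36 (edgeR adjusted p = 0.0596) and no overlap between groups. *Bach2* and *Dpp3* passed with DESeq2 (adjusted p = 0.0334 and 0.0343). *Gsk3b* and *Btrc*, of the KEAP1-independent route to NRF2 degradation, had -0.05 and 0.02. *Park7* had 0.13, and the coactivators *Crebbp* and *Ep300* had -0.06 and -0.02. The sign of *Mafk*, *Bach1*, *Btrc*, *Gsk3b*, *Park7*, *Crebbp*, *Ep300* and *Nfe2l2* was not the same in every setting.

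Genes widely listed as NRF2 targets beyond the 10 members moved in both directions. Of 34 tested, 5 rose and 6 fell, where 4.11% and 3.44% of all genes did so, and the median log2 fold change was -0.10. Those that rose were *Sqstm1*, *Htatip2* (0.66, SE 0.12, edgeR adjusted p = 0.00811), the carbonyl reductase *Cbr1* (0.47, SE 0.12, edgeR adjusted p = 0.0413), the ferritin light chain *Ftl1* and the glutathione transferase *Gstp1* (0.57, SE 0.14, edgeR adjusted p = 0.0316). *Htatip2* lay at 10.8 to 15.5 CPM under vehicle and at 20.2 to 23.0 CPM under ISOGK, without overlap. *Gstp1* and *Cbr1* lost their call in 6 of 8 fits with 1 mouse removed, those without vehicle mouse 1, 2, 3 or 4 among them, and both lost it with scaling by library size alone (edgeR adjusted p = 0.0512 and 0.112). With the length and GC offsets the estimate of *Gstp1* was 0.38 and still passed, and *Cbr1* did not (edgeR adjusted p = 0.0517).

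Of the 6 that fell, 4 were glutathione transferases, which conjugate glutathione to reactive compounds. *Gstm3*, of the mu class, had 17.7, 42.4, 18.9 and 27.3 CPM in vehicle-treated and 5.79, 5.01, 5.71 and 5.34 CPM in ISOGK-treated mice. The ISOGK-treated mice were all low and alike, and the log2 fold change was -2.28 (SE 0.27, edgeR adjusted p = 0.00178). *Ptgr1*, a reductase of lipid-derived enones, fell by 1.23 on the log2 scale (SE 0.27, edgeR adjusted p = 0.0184) from a low level of 2.36 ± 0.61 CPM (SD, n = 4), and its call was lost without vehicle mouse 1 or 2 (edgeR adjusted p = 0.0568 and 0.0576). The others were *Gsta3* (-0.64), *Gsta4* (-0.62), *Gstm1* (-0.52) and the cytochrome P450 *Cyp2a5* (-1.18), with edgeR adjusted p between 0.0258 and 0.0384. Each of these 4 lost its call in 4 to 6 of the 8 fits without 1 mouse, always including those without vehicle mouse 2, 3 or 4. *Gsta3* also lost it with the length and GC offsets (edgeR adjusted p = 0.0612) and *Cyp2a5* with no filter beyond 1 count (0.067). *Cbr1*, *Gstp1*, *Gsta3*, *Gsta4*, *Gstm1*, *Cyp2a5* and, in the lists that follow, *Chac2*, *Prdx2*, *Prdx3*, *Prdx4* and the cell markers fell outside the rule for named genes and were chosen after their values were seen. Glutathione transferases are close in sequence to each other, and how reads shared among them were counted is not given in the sources used here. The most abundant genes of the list that did not pass were the ferritin heavy chain *Fth1* (0.06) and the export pump *Abcc2* (-0.11), both with a sign that changed among the settings.

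**Figure D3:**
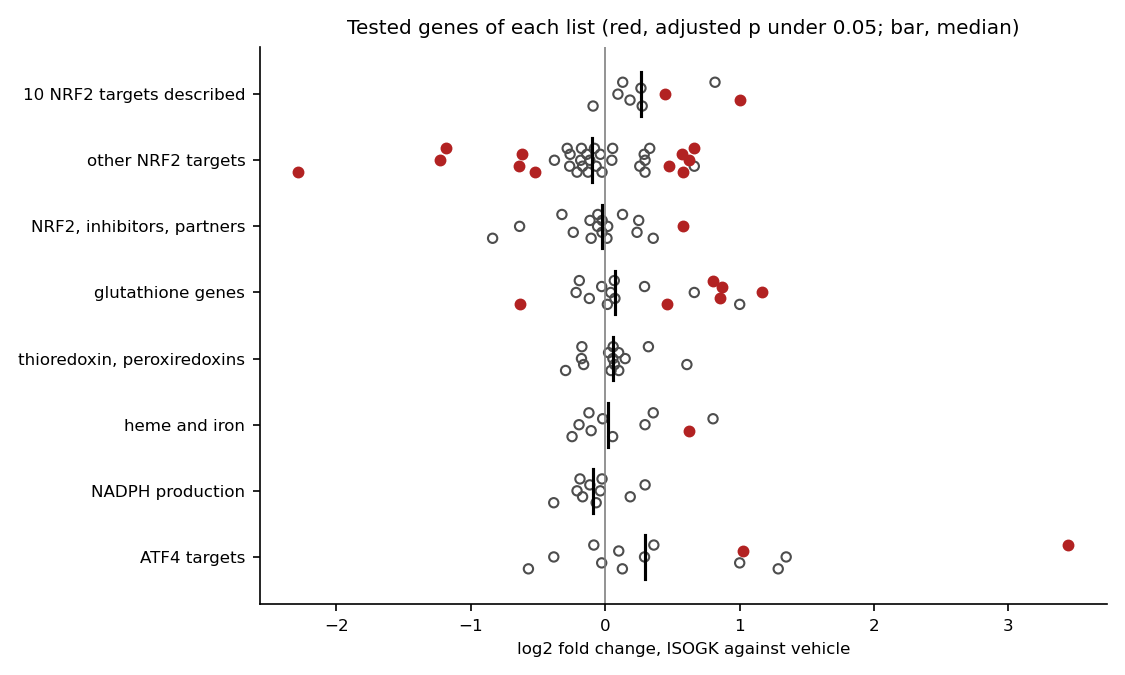
Log2 fold change of ISOGK over vehicle (horizontal axis) for the tested genes of each list, with genes at an edgeR adjusted p under 0.05 in red, other genes as open circles and the median of each list as a black bar. The 34 other NRF2 targets hold 5 red genes above 0 and 6 below 0, and the thioredoxin and NADPH lists hold none.

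Glutathione metabolism outside the members held 5 genes that rose and 1 that fell among 17 tested. Of all genes, 4.11% rose and 3.44% fell. The median log2 fold change of the 17 was 0.07. *Mat1a*, the liver enzyme that makes S-adenosylmethionine at the head of the route from methionine to cysteine, had 6606, 6235, 4929 and 6063 CPM in vehicle-treated and 10806, 14458, 13857 and 14488 CPM in ISOGK-treated mice. All ISOGK-treated mice were higher, with a log2 fold change of 1.17 (SE 0.13, edgeR adjusted p = 0.000726). *Ahcy*, a later step of the same route, rose by 0.46 (SE 0.10, edgeR adjusted p = 0.0152), a call lost without ISOGK mouse 2 (edgeR adjusted p = 0.0531) and with scaling by library size alone (0.0672). The glutaredoxin *Glrx* rose by 0.80 (SE 0.10, edgeR adjusted p = 0.0013), and *Oplah*, which returns 5-oxoproline to glutamate, by 0.87 (SE 0.13, edgeR adjusted p = 0.00236).

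*Gpx3*, the secreted glutathione peroxidase, rose by 0.85 (SE 0.19, edgeR adjusted p = 0.0202), and its call was lost without vehicle mouse 1, 2 or 4 and with scaling by library size alone (edgeR adjusted p = 0.0501). *Chac2*, which degrades glutathione, fell by 0.63 on the log2 scale (SE 0.15, edgeR adjusted p = 0.0256), and its call was lost in 4 of 8 fits, without vehicle mouse 1, 2 or 3 or ISOGK mouse 2. *Cth*, which makes cysteine from cystathionine, had 336 ± 86.5 and 672 ± 317 CPM (SD, n = 4 each) and did not pass (log2 fold change 1.00, edgeR adjusted p = 0.097), with ISOGK mouse 2 far above the others at 1140 CPM. *Gpx1*, the most abundant of those that did not pass, had a log2 fold change of 0.07, with a sign that changed among the settings.

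None of 14 thioredoxin and peroxiredoxin genes outside the members passed in edgeR, while 2 had an unadjusted p under 0.05, and DESeq2 called 1 higher and limma-voom 0. The most abundant were *Prdx6*, at -0.16 with no overlap between groups, and the thioredoxin inhibitor *Txnip*, at 0.61 (SE 0.17, edgeR adjusted p = 0.0566). The other typical peroxiredoxins, *Prdx2*, *Prdx3* and *Prdx4*, gave estimates of 0.06, 0.15 and 0.10 on the log2 scale, and none of them passed. Of 10 genes in routes that produce NADPH, 0 passed in edgeR, 2 had an unadjusted p under 0.05, and DESeq2 called 1 higher and limma-voom 0. The most abundant of these were *Aldh1l1* (log2 fold change -0.38) and *Idh1* (-0.02, of changing sign among the settings).

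Of 10 genes linked to heme breakdown, heme synthesis and iron, 1 rose and 0 fell, where 4.11% and 3.44% of all genes did so. The gene that rose was *Ftl1*, at 1547, 1582, 1708 and 1782 CPM in vehicle-treated and 2441, 2355, 2071 and 3332 CPM in ISOGK-treated mice. The groups did not overlap and ISOGK mouse 4 was far above the others, with a log2 fold change of 0.62 (SE 0.14, edgeR adjusted p = 0.02). The call was lost without vehicle mouse 1 or 2 (edgeR adjusted p = 0.0624 and 0.0738), and *Ftl1* has many processed copies among which reads may have been split. *Alas1*, the first enzyme of heme synthesis, had 0.80 (SE 0.37) with overlapping groups.

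ATF4, the factor of the integrated stress response, shares *Slc7a11* with NRF2, so its targets were also counted. Of 13 tested, 2 rose and 0 fell, where 4.11% and 3.44% of all genes did so, and the median log2 fold change was 0.29. *Asns*, asparagine synthetase, had 1.46, 1.07, 1.21 and 0.49 CPM in vehicle-treated and 10.1, 13.1, 3.51 and 19.3 CPM in ISOGK-treated mice. The groups did not overlap, with ISOGK mouse 3 the lowest of its group, and *Asns* rose by 3.45 (SE 0.54, edgeR adjusted p = 0.00813). The factor *Atf5* rose by 1.02 (SE 0.15, edgeR adjusted p = 0.00269). *Atf4* itself had 0.36 (SE 0.15, edgeR adjusted p = 0.177).

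Genes whose values over the 8 mice were most like those of *Srxn1* were found by the root mean square difference of log2 CPM, each gene centred on its own mean, among all tested genes outside the 10. The closest was *Gk*, glycerol kinase, at 0.084, followed by *Pctp*, a phosphatidylcholine transfer protein, at 0.104. *Hsdl2*, a peroxisomal protein, had 0.126, *Hacd3*, of very long chain fatty acid synthesis, 0.129, and *Tmem62* 0.140. *Gk* was found at 66.5, 64.0, 66.5 and 68.0 CPM in vehicle-treated and at 117, 129, 127 and 131 CPM in ISOGK-treated mice. As in *Srxn1*, the groups lay far apart and the mice of a group close together. None of the 5 is in the NRF2, glutathione, thioredoxin, heme, NADPH or ATF4 lists, which hold only a small part of the genes tested, so nothing is read from this. Since the measure is dominated by the difference between the groups, their fold changes are no separate result.

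**Figure D4:**
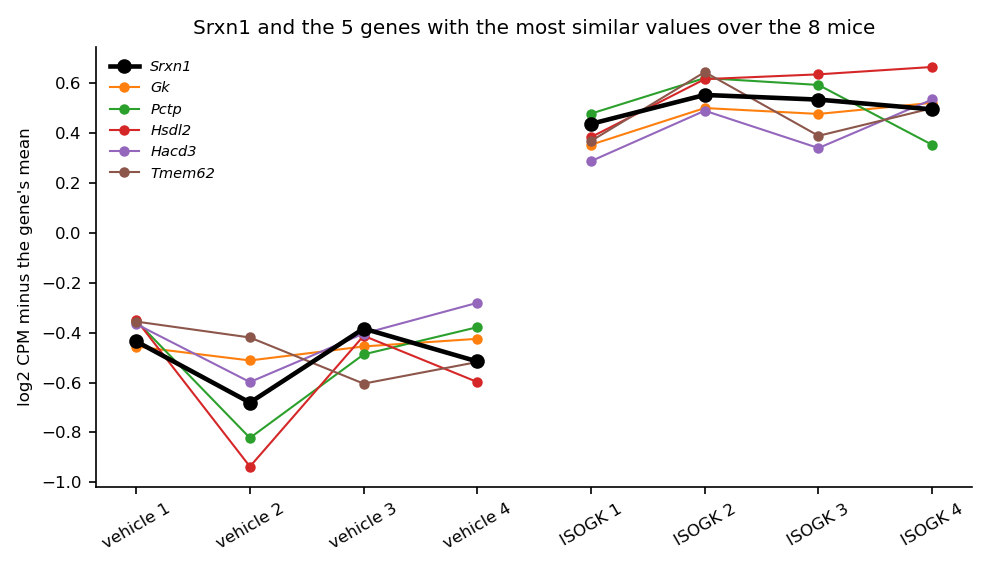
Log2 CPM minus the mean of each gene over the 8 mice (vertical axis) for *Srxn1* (black) and the 5 genes closest to it, in each vehicle-treated and ISOGK-treated mouse (horizontal axis), where lines only link the points of a gene. *Srxn1* lies between -0.68 and -0.38 in the vehicle group and between 0.44 and 0.55 in the ISOGK group.

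Markers of other liver cells were counted for both groups. In addition to the macrophage genes above, 1 of 5 tested neutrophil markers rose (*S100a9*, 1.31, edgeR adjusted p = 0.0149, lost without vehicle mouse 2). So did 1 of 5 tested cholangiocyte markers (*Sox9*, 0.51, edgeR adjusted p = 0.0494, lost in all 8 fits without 1 mouse). All 5 tested markers had an estimate above 0 in both lists. An unadjusted p under 0.05 was found for 3 neutrophil and 4 cholangiocyte markers. In each list DESeq2 called 2 higher and limma-voom 1. For neutrophils the summed level ran from 10.3 to 15.8 CPM under vehicle and from 12.1 to 28.0 CPM under ISOGK, and 27.6 to 34.8 and 28.3 to 69.2 CPM for cholangiocytes, with overlap in both. *Ly6g*, which defines neutrophils, had at most 3 counts in every library. The tested markers of lymphocytes (3), endothelial cells (6), stellate cells (6) and muscle (1) did not pass in edgeR, among which 0, 1, 2 and 0 had an unadjusted p under 0.05, DESeq2 called 1 stellate marker lower and limma-voom called none. An estimate above 0 was found for 0 of the 6 stellate markers (median -0.24), 3 of the 3 lymphocyte and 2 of the 6 endothelial markers. Summed levels overlapped for lymphocytes (2.55 to 4.60 and 2.94 to 6.49 CPM), endothelial cells (313 to 336 and 289 to 338 CPM) and stellate cells (95.7 to 147 and 60.1 to 132 CPM). The part of other cell types in the level of *Srxn1* was not tested.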

How the data were processed

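Liver RNA of 8 *Apoe*-/- mice was sequenced, and groups and replicate numbers were taken from the deposited labels. As stated by the authors, HISAT2 was used for alignment of single-end reads (build mm10 in the submitters' processing notes) and StringTie for gene counts. The deposited values are these raw whole-number counts by gene symbol. Use of strand and the treatment of reads that match several genes are not given in the sources used here.

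A low-count filter (edgeR's filterByExpr with 10 as the minimum count and 15 as the minimum total) kept 12307 of 16540 genes. After TMM normalization, ISOGK was compared with vehicle in a robust quasi-likelihood fit of edgeR 4.0.16 (R 4.3.3), with Benjamini-Hochberg adjustment over all tested genes and a threshold of 0.05. Counts of reads without molecular identifiers give counting error only, and the common biological coefficient of variation was 0.164. No libraries of a group agreed within sampling noise (chi-square per gene of 17.1 or more).

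Alternatives were DESeq2 1.42.0, limma-voom (limma 3.58.1), the size factors of DESeq2 or no factors besides library size, a filter at 1 count in total or at 10 counts in every library, a fit that was not robust, a block for the replicate number, each mouse left out and, added after seeing the data, offsets for transcript length and GC content. The scripts were tested on simulated data. The members, the gene lists and the tests were chosen with earlier results of these data known. Genes named were the 10 members, all genes of the NRF2 control list, from each other pathway list up to 5 with the smallest adjusted p under 0.05 and the 2 most abundant that did not pass, and the 5 genes closest to *Srxn1*, as well as those said in the text to be chosen later. Log2 CPM used a prior count of 2. Locations and lengths are from GENCODE M21 (16211 of 16540 symbols matched) and promoters from RefSeq, both on GRCm38.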

Additional observations from a re-analysis of the deposited data

Results flagged for a closer look

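In 4 cases 1 mouse stood apart from the other 3 of its group, by a gap over 0.829 of the group's range (Dixon's 95% value for 4 samples). *Btrc* in vehicle mouse 3 was at 9.15 CPM, below the 11.2 to 11.3 CPM of its group, which is a gap of 0.92. *Atf5* in vehicle mouse 4 was at 122 CPM against 92.0 to 96.3 CPM, a gap of 0.86. *Prdx4* in vehicle mouse 1 was at 47.6 CPM against 54.0 to 54.5 CPM, a gap of 0.93. *Gstm1* in ISOGK mouse 4 was at 760 CPM against 610 to 631 CPM, a gap of 0.857. Over the 144 groups of values examined, chance alone gives about 7.2 such gaps, at 1 in 20. None of the 10 members was among the 4.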

How the results depend on the processing

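Over 71 gene values and 17 alternatives, no called value changed sign, 1116 values kept their side of the threshold or stayed within the spread of the mice, 68 lost and 13 gained a call, and 10 moved by more than that spread. Scaling by library size alone shifted the median of all genes by -0.13 (log2). It gave 262 genes higher and 804 lower (24.6% of calls higher, against 54.5% in the report), 1 member called instead of 2 (*Gsr* was lost), 3 other targets higher and 2 control genes called. DESeq2 gave 745 genes higher and 652 lower, against 506 and 423 in the report, 3 control genes and, with *Osgin1*, 3 members. Leaving out 1 mouse gave 219 to 712 genes higher, 160 to 523 lower, 1 to 2 members (*Gsr* was lost without vehicle mouse 2), 2 to 7 other targets higher, 1 to 5 lower and 1 to 3 control genes. Both lowest totals were those without vehicle mouse 2, both highest those without ISOGK mouse 3. The cause was not tested.

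Mice with the same replicate number did not deviate together (correlations of 0.013, -0.014, 0.075 and 0.085). With the replicate number as a block, 411 genes were higher and 416 lower, and 2 members were called. The block gained the calls of *Cth* (edgeR adjusted p = 0.00888) and *Timd4* (0.0271) and lost those of *Cyp2a5* (0.0787) and *Sox9* (0.0916). It changed no other call among the genes followed over the settings, which do not include *Cd5l* and *Vsig4*. Depth limits *Slc7a11*, which the filter removed at 3 to 13 counts per library, and *Nqo1*, at 58 to 124 counts. A p over the threshold does not show that a gene stayed the same.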
